A study of Mus musculus with 10 samples.

Results

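The genes described here are 10 of the 23284 gene symbols in the deposited count table, chosen by function: the core proteins Glycam1 and Cd34, the glycan-building enzymes Gcnt1 and B3gnt3, the sulfotransferases Chst2 and Chst4, the fucosyltransferases Fut4 and Fut7, the sialyltransferase St3gal6, and Enpp2, which encodes autotaxin. The choice was made with earlier results of these data known. These genes were followed in RNA-Seq libraries of 3 endothelial populations sorted from untreated C57BL/6 (B6) mice aged 6 to 8 weeks. LN-LEC (4 libraries) were lymphatic endothelial cells and LN-BEC (3 libraries) were blood endothelial cells, both from inguinal, axillary, brachial, cervical and mesenteric lymph nodes (LN) that had been pooled. D-LEC (3 libraries) were lymphatic endothelial cells of the diaphragm. All populations lacked CD45 and carried CD31, and the lymphatic cells were separated from the blood endothelial cells by podoplanin (PDPN). Each library came from a pool of mice, so that the spread between libraries is one between pools. The LN-BEC gate took blood endothelial cells of every kind, and high endothelial cells were not sorted apart from those of capillaries, arterioles and other venules.

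High endothelial venules are the vessels through which naive lymphocytes leave the blood and enter a lymph node. Lymphocytes roll along their wall on a sulfated, fucosylated and sialylated sugar, 6-sulfo sialyl Lewis X, at the tips of O-glycans carried by mucin-like core proteins. A core 2 branch made by Gcnt1 or an extended core 1 chain started by B3gnt3 gives the arm of the glycan, Chst2 and Chst4 add sulfate to its N-acetylglucosamine, a sialyltransferase caps it, and Fut7 and Fut4 add the fucose. Autotaxin, which high endothelial cells secrete, makes lysophosphatidic acid from lysophosphatidylcholine and acts on lymphocyte motility and on passage through the vessel wall.

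The sort markers were in the populations that the labels name. Summed normalized counts (counts divided by DESeq2 size factors) of the 4 blood endothelial markers Nrp1, Flt1, Vwf and Notch4 were 69497 to 72713 in LN-BEC libraries, 817.6 to 1374 in LN-LEC and 449.9 to 632.9 in D-LEC. Those of the 4 lymphatic markers were 965.1 to 5262, 79208 to 102089 and 313593 to 337356 in the same order, and Pecam1 and Cdh5 together gave 137219 to 156212, 55656 to 59671 and 56113 to 66771. The 5 high endothelial genes outside the 10 summed to 16096 to 22174 in LN-BEC, 3600 to 4570 in LN-LEC and 897.7 to 1289 in D-LEC, the 4 capillary genes to 36678 to 48160, 16613 to 19353 and 22256 to 24153, and the 4 arterial genes to 17045 to 19613, 21718 to 26871 and 23594 to 27888. Efnb2 made up most of each arterial sum, at means of 15178, 20198 and 20097 in LN-BEC, LN-LEC and D-LEC. Gja4 and Bmx were also lowest in LN-BEC. Gja5 went the other way, with means of 1016, 14.1 and 0.609 in the same order. The capillary sum was mostly Kdr in LN-LEC (mean 17018) and mostly Kdr and Gpihbp1 in D-LEC (12101 and 10969). Car4 and Rgcc were far higher in LN-BEC, with Car4 means of 3481, 56.0 and 4.04. Library totals ran from 22429940 to 48906070 counted fragments. LN-BEC replicate 3 stood apart: its levels of the lymphatic markers Lyve1, Pdpn, Prox1 and Reln were 4.31% to 6.23% of the LN-LEC mean, against 0.942% to 2.72% in the other LN-BEC libraries, and the capillary gene Gpihbp1 was 1.996-fold the mean of those. LN-LEC replicate 4 was the deepest library and had the highest Flt1, Vwf and Notch4 of its population.

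The start regions of 3 genes are shown because the core protein Glycam1 and the sulfotransferases Chst4 and Chst2 had unlike distributions over the populations. The 250 bases before the transcript start of the deposited annotation were read from the mm9 genome on the strand of each gene. At least the first or the last 100 bases of each run are also present in the RefSeq promoter table. CG dinucleotides are in capitals. The Glycam1 run is chr15:103395510-103395759, the Chst4 run chr8:112563235-112563484 and the Chst2 run chr9:95307690-95307939, all on the minus strand.
Glycam1: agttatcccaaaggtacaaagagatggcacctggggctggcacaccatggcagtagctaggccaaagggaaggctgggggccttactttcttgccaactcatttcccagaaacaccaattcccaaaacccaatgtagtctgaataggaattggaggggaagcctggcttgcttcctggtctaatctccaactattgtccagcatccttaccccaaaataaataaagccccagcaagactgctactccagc
Chst4: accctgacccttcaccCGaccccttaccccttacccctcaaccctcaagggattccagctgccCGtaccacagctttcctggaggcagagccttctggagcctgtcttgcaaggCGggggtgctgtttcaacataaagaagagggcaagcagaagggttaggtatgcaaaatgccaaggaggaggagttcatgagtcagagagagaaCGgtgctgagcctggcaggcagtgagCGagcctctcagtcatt
Chst2: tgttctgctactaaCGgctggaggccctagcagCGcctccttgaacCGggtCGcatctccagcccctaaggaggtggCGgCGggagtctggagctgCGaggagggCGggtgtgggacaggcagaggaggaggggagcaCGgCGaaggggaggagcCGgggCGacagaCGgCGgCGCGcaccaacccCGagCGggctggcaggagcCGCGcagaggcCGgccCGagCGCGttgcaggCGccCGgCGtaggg
Glycam1 had 0 CG dinucleotides in this window, Chst4 had 5 and Chst2 had 27, beside a median of 10 over 23099 gene starts. Of the others, Fut7 had 1, Gcnt1 2, Cd34 6, Enpp2 7, B3gnt3 8, Fut4 16 and St3gal6 22. In the GENCODE annotation the windows of Fut7 and St3gal6 lie inside the gene, which starts further upstream there, and Gcnt1 starts within its deposited span, so that these 3 windows rest on the start of the deposited annotation alone. The letters CAGGAA, searched on both strands, were in 6 of the 10 windows (Glycam1, Cd34, Gcnt1, Chst4, Fut4 and St3gal6), and 23.8% of all windows of this length hold them. TATAAA was found in the window of Gcnt1, and 12.04% of all windows hold it, while the NF-kB consensus was found in that of St3gal6 and in 7.82% of all windows.

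All 10 genes were higher in LN-BEC than LN-LEC (edgeR quasi-likelihood test, Benjamini-Hochberg adjusted p under 0.05), where 38.2% of the 15330 genes tested passed in either direction and 18.4% were higher in LN-BEC. The libraries of these populations did not overlap for any of the 10, as for 44.9% of all tested genes. The fold was at least 5 for 6 of them (Chst4, Fut7, Cd34, Glycam1, Enpp2 and B3gnt3), beside 5.35% of all genes. The median log2 fold change of LN-LEC over LN-BEC was -2.56 over the 10 genes and -0.01 over all genes. In libraries of whole populations, fewer cells that express a gene and less of its RNA per cell cannot be told apart.

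All 10 were also higher in LN-BEC than D-LEC, where 48.1% of genes passed in either direction, 25.6% were higher in LN-BEC, and the libraries of 56.1% did not overlap. At least 5-fold differences were seen for 9 of them, St3gal6 being the exception, beside 10.4% of all genes. Of the same genes, 8 were higher in LN-LEC than D-LEC, 1 (Cd34) was higher in D-LEC, and 1 (Chst4) did not pass the test. For that comparison 45.8% of all genes passed, 24.1% toward LN-LEC and 21.7% toward D-LEC, and the libraries of 50% did not overlap, as held for 9 of the 10. Fold differences of at least 5 over D-LEC were found in LN-LEC for 4 of the genes (Glycam1, Enpp2, Chst2 and Fut7), beside 8.14% of all genes. The 3 comparisons share libraries and are given side by side.

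**Figure D1:**
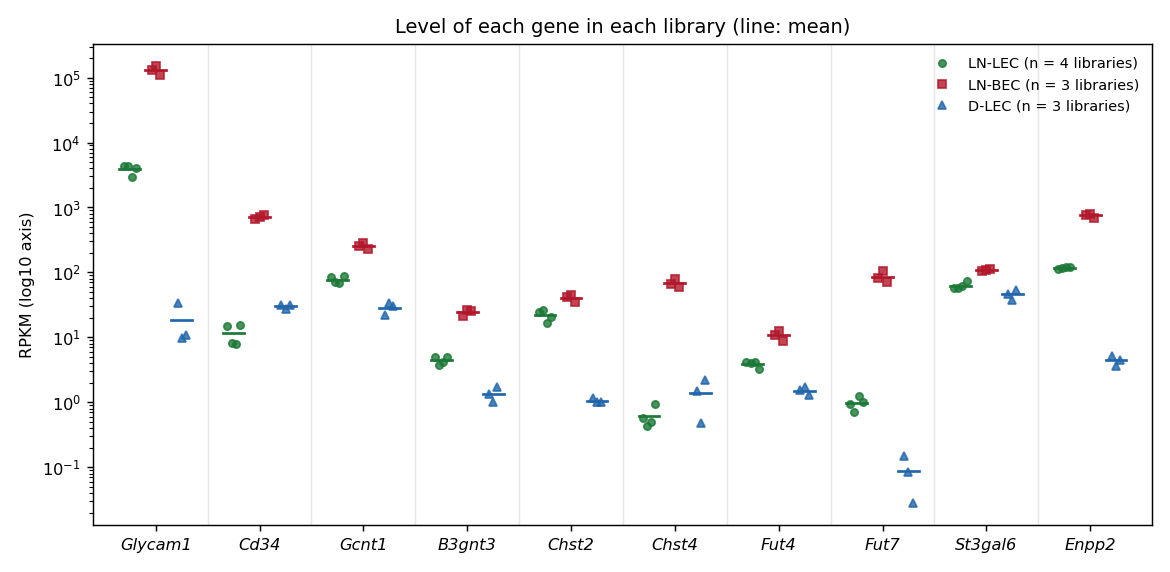
RPKM (counted fragments scaled by exon length and by TMM-scaled library total) of the 10 genes on a log10 axis, with a point for each LN-LEC, LN-BEC and D-LEC library and a line at each population mean. LN-BEC libraries were highest for every gene, and the lowest points are those of Fut7 in D-LEC, at 0.028 to 0.148 RPKM.

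**Figure D2:**
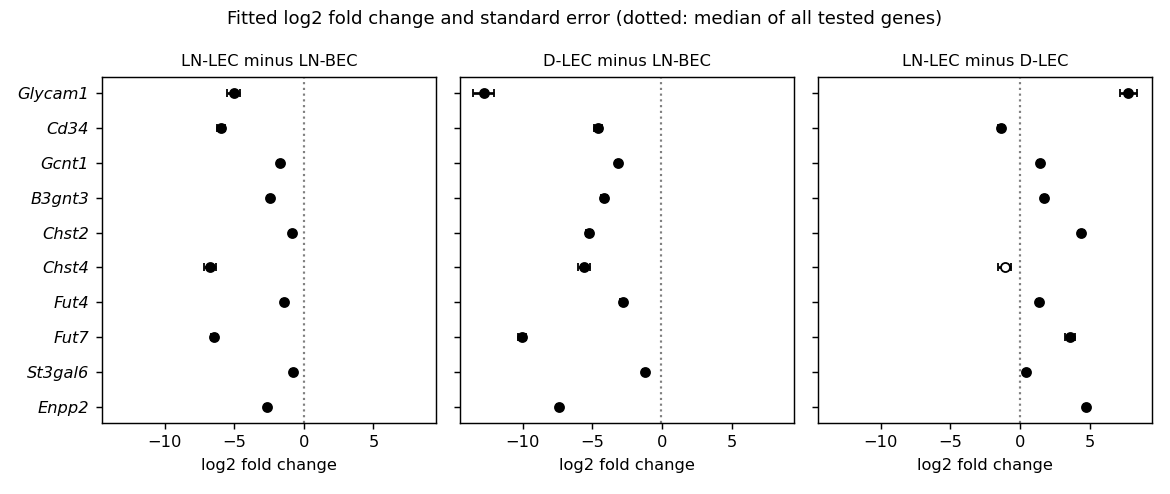
Log2 fold changes of the 10 genes in the 3 comparisons, with bars of 1 standard error, filled where the adjusted p was under 0.05 and open otherwise. The dotted line is the median of all tested genes, at -0.01, -0.05 and 0.03 from left to right, and the open point is Chst4 in LN-LEC against D-LEC.

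Glycam1 (chr15:103393193-103395509, minus strand, 4 exons), a small secreted mucin and one of the main glycan carriers of high endothelium, was the most abundant transcript per length in LN-BEC. It held 7.43%, 8.72% and 5.51% of all counted fragments in LN-BEC replicates 1 to 3. In the 4 LN-LEC libraries its share was 0.281%, 0.284%, 0.194% and 0.240%, and in the 3 D-LEC libraries 0.00219%, 0.000585% and 0.000687%. These shares did not overlap between populations.

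The fitted difference in Glycam1 was 33.0-fold between LN-BEC and LN-LEC (log2 fold change of LN-LEC over LN-BEC -5.05, SE 0.47, edgeR adjusted p = 4.69e-05). Over D-LEC it was 7175-fold in LN-BEC (D-LEC over LN-BEC -12.81, SE 0.73, adjusted p = 1.46e-06) and 217-fold in LN-LEC (LN-LEC over D-LEC 7.76, SE 0.60, adjusted p = 1.26e-05). The D-LEC level rested on 513, 178 and 246 fragments. D-LEC replicate 1 was the high one, and without it the log2 fold changes became -13.63 and 8.59. In RPKM, Glycam1 had rank 1 of 15330 tested genes in LN-BEC (130256 ± 20341, SD, n = 3) and rank 9 in LN-LEC (3943 ± 668, SD, n = 4).

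Cd34 (chr1:196765015-196787486, plus strand, 8 exons) encodes a membrane sialomucin that carries such glycans on high endothelium and is also present on capillary endothelium. Its normalized counts were 52024, 55208 and 59388 in LN-BEC, 1152, 633.5, 610.6 and 1194 in LN-LEC, and 2489, 2119 and 2440 in D-LEC. The populations did not overlap, and D-LEC lay between the others, an order found for none of the other genes whose 3 comparisons all passed the test. Cd34 was 61.1-fold higher in LN-BEC than LN-LEC (log2 -5.93, SE 0.27, edgeR adjusted p = 3.53e-08) and 23.7-fold higher than in D-LEC (log2 -4.57, SE 0.28, adjusted p = 3.01e-07). It was 2.57-fold higher in D-LEC than LN-LEC (log2 of LN-LEC over D-LEC -1.36, SE 0.23, adjusted p = 7.10e-04). Of its exon bases, 5.65% are shared with the antisense symbol Gm16897, and strand was ignored in the counting. The D-LEC libraries had the highest levels of mesothelium and muscle markers: the 3 mesothelium markers summed to 425.8 to 1337 normalized counts in D-LEC, 7.62 to 40.2 in LN-LEC and 9.51 to 58.6 in LN-BEC, and the 4 skeletal muscle markers to 716.4 to 889.9, 1.27 to 11.9 and 8.40 to 14.9, with Myh4 at 0 in LN-BEC. Their part in this and the other D-LEC values was not tested.

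The 2 core proteins were therefore distributed differently among the lymphatic populations. The within-library ratio of Glycam1 to Cd34 in RPKM was 146.0 to 213.8 in LN-BEC, 258.7 to 534.8 in LN-LEC and 0.349 to 1.09 in D-LEC. The ratio does not depend on how libraries are scaled to each other, and its ranges were separate.

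Gcnt1 (chr19:17400631-17447334, minus strand, 5 exons) encodes the enzyme that starts the core 2 branch. Normalized counts were 37000, 40080 and 32807 in LN-BEC, 11995, 9945, 9520 and 12298 in LN-LEC, and 3249, 4728 and 4370 in D-LEC. The 3 populations were ordered LN-BEC, LN-LEC, D-LEC with no overlap. The difference was 3.31-fold between LN-BEC and LN-LEC (log2 -1.73, SE 0.14, edgeR adjusted p = 2.76e-07), 8.92-fold between LN-BEC and D-LEC (log2 -3.16, SE 0.16, adjusted p = 2.10e-09) and 2.69-fold between LN-LEC and D-LEC (log2 1.43, SE 0.14, adjusted p = 2.40e-06).

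B3gnt3 (chr8:74215618-74225699, minus strand, 3 exons) encodes the enzyme that extends core 1. It had 1352, 1658 and 1601 normalized counts in LN-BEC, 313.7, 236.1, 260.1 and 306.8 in LN-LEC, and 84.5, 63.1 and 109.1 in D-LEC. The order of populations was that of Gcnt1, again with no overlap. B3gnt3 was 5.43-fold higher in LN-BEC than LN-LEC (log2 -2.44, SE 0.15, edgeR adjusted p = 2.19e-08), 17.9-fold higher in LN-BEC than D-LEC (log2 -4.16, SE 0.19, adjusted p = 5.75e-10) and 3.29-fold higher in LN-LEC than D-LEC (log2 1.72, SE 0.18, adjusted p = 2.40e-06). Per length, Gcnt1 was the more abundant of these enzymes in every library. The mean RPKM ratio of Gcnt1 to B3gnt3 was 10.6 in LN-BEC, 17.3 in LN-LEC and 22.5 in D-LEC. The D-LEC mean was raised by replicate 2, at 32.9 on 63 B3gnt3 fragments. D-LEC replicates 1 and 3, at 16.9 and 17.6, lay within the LN-LEC range of 16.1 to 18.5. All LN-BEC libraries were below that range.

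The sulfotransferases divided by population. Chst4 (chr8:112552975-112563234, minus strand, 2 exons), the enzyme known chiefly from high endothelial venules, had 3935, 4731 and 3535 normalized counts in LN-BEC. It had 33.7, 25.4, 29.4 and 55.9 in LN-LEC and 90.8, 28.1 and 130.6 in D-LEC. LN-BEC was far above both lymphatic populations, which overlapped with each other. Chst4 was 105-fold higher in LN-BEC than LN-LEC (log2 -6.71, SE 0.44, edgeR adjusted p = 3.25e-06), the largest fold among the 10 genes in that comparison, and 48.5-fold higher than in D-LEC (log2 -5.60, SE 0.46, adjusted p = 1.15e-05).

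Between the lymphatic populations Chst4 did not pass the test (log2 of LN-LEC over D-LEC -1.11, SE 0.48, edgeR adjusted p = 0.0929), on 20 to 89 fragments in LN-LEC and 28 to 158 in D-LEC. The call depended on the fit: the adjusted p was 0.0415 with DESeq2, 0.0425 with a non-robust fit and 0.00176 without D-LEC replicate 2, the lowest of its population, and ranged from 0.00176 to 0.400 over the 20 alternatives.

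Chst2 (chr9:95301345-95307689, minus strand, 2 exons), which also sulfates N-acetylglucosamine and is used in many tissues, was distributed differently. Its normalized counts were 7744, 8427 and 6422 in LN-BEC, 4543, 4875, 3033 and 3813 in LN-LEC, and 223.3, 184.4 and 189.2 in D-LEC. LN-LEC lay close below LN-BEC, and D-LEC was far below both. The fold was 1.83 between LN-BEC and LN-LEC (log2 -0.87, SE 0.15, edgeR adjusted p = 3.60e-04), 20.8 between LN-LEC and D-LEC (log2 4.38, SE 0.18, adjusted p = 1.03e-09) and 38.1 between LN-BEC and D-LEC (log2 -5.25, SE 0.19, adjusted p = 2.78e-10).

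The RPKM ratio of Chst4 to Chst2 was 1.59, 1.75 and 1.72 in the LN-BEC libraries. It was 0.0232, 0.0163, 0.0303 and 0.0458 in LN-LEC, so that Chst2 was the prevailing transcript of the pair in every LN-LEC library. In D-LEC it was 1.27, 0.475 and 2.15, at levels of both genes near 1 RPKM.

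The fucosyltransferases divided in a similar way. Fut7 (chr2:25279214-25281893, plus strand, 3 exons), the main enzyme of selectin ligand fucosylation in leukocytes and high endothelium, had 4855, 6087 and 4232 normalized counts in LN-BEC and 54.4, 41.9, 72.4 and 59.1 in LN-LEC. In D-LEC it was counted 7, 5 and 2 times. There was no overlap among the populations. Fut7 was 87.0-fold higher in LN-BEC than LN-LEC (log2 -6.44, SE 0.21, edgeR adjusted p = 2.81e-10), 1053-fold higher in LN-BEC than D-LEC (log2 -10.04, SE 0.31, adjusted p = 1.09e-10) and 12.1-fold higher in LN-LEC than D-LEC (log2 3.597, SE 0.38, adjusted p = 7.39e-06). The folds over D-LEC rest on those few fragments.

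Fut4 (chr9:14552903-14556566, minus strand, 1 exon), which acts beside Fut7, had 1193, 1357 and 957.9 normalized counts in LN-BEC, 456.3, 441.8, 446.6 and 355.8 in LN-LEC, and 169.0, 188.4 and 142.1 in D-LEC. The populations were separate but closer to each other than for Fut7. The folds were 2.73 between LN-BEC and LN-LEC (log2 -1.45, SE 0.14, edgeR adjusted p = 1.36e-06), 7.06 between LN-BEC and D-LEC (log2 -2.82, SE 0.16, adjusted p = 5.43e-09) and 2.59 between LN-LEC and D-LEC (log2 1.37, SE 0.15, adjusted p = 5.28e-06). In RPKM, Fut7 was 7.57 to 8.35 times Fut4 in LN-BEC libraries, 0.176 to 0.309 times Fut4 in LN-LEC and 0.0216 to 0.0972 times in D-LEC.

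**Figure D3:**
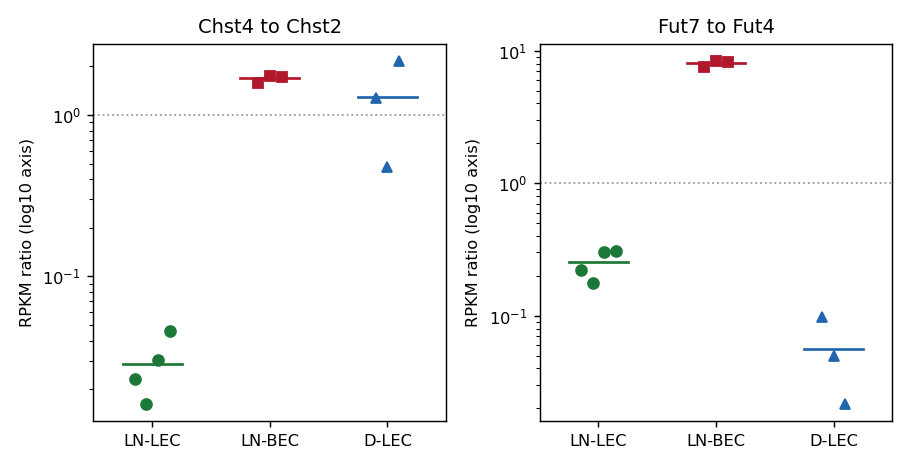
Within-library RPKM ratios of Chst4 to Chst2 (left) and Fut7 to Fut4 (right) on log10 axes, with a point for each library, a line at the mean and a dotted line at 1. The LN-BEC libraries lie above 1 in both panels, the LN-LEC libraries below 1 in both, and the D-LEC libraries straddle 1 for the sulfotransferases and lie lowest for the fucosyltransferases.

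St3gal6 (chr16:58470655-58523425, minus strand, 11 exons), an alpha-2,3-sialyltransferase that contributes to selectin ligands, varied least of the 10 genes. It had 4991, 5209 and 5295 normalized counts in LN-BEC, 2719, 2712, 2849 and 3415 in LN-LEC, and 2214, 1806 and 2525 in D-LEC. Its populations did not overlap, with 2712 as the lowest LN-LEC value and 2525 as the highest of D-LEC. The folds were 1.75 between LN-BEC and LN-LEC (log2 -0.80, SE 0.11, edgeR adjusted p = 5.76e-05), 2.38 between LN-BEC and D-LEC (log2 -1.25, SE 0.12, adjusted p = 1.52e-06) and 1.36 between LN-LEC and D-LEC (log2 0.44, SE 0.12, adjusted p = 0.00622).

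Enpp2 (chr15:54670453-54751701, minus strand, 26 exons) had 78439, 81223 and 70022 normalized counts in LN-BEC. LN-LEC had 11527, 11742, 12192 and 11994, and D-LEC 529.8, 368.7 and 453.6. These levels were separate, and those of LN-LEC were the least variable of any of the genes in that population. Autotaxin transcript was 6.38-fold higher in LN-BEC than LN-LEC (log2 -2.67, SE 0.11, edgeR adjusted p = 4.78e-10), 171-fold higher in LN-BEC than D-LEC (log2 -7.42, SE 0.15, adjusted p = 4.78e-12) and 26.8-fold higher in LN-LEC than D-LEC (log2 4.74, SE 0.13, adjusted p = 1.43e-11). Fibroblasts of lymph nodes also express Enpp2. The 5 fibroblast and pericyte markers, none of them at 0, summed to 4612 to 5488 normalized counts in LN-BEC, 2967 to 5084 in LN-LEC and 149.3 to 316.6 in D-LEC, mostly from Rgs5 in the lymph node populations, while Pdgfra was at 97.7 to 288.0, 94.98 to 298.1 and 35.1 to 181.6. The part of these cells in the level of Enpp2 was not tested.

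Ordered by mean RPKM within a population, LN-BEC had Glycam1 first, then Enpp2 (756) and Cd34 (711), whose libraries overlapped, then Gcnt1 (257), St3gal6 (109), Fut7 (86.2), Chst4 (68.2), Chst2 (40.5), B3gnt3 (24.5) and Fut4 (10.7). Among the neighbours in that order, the libraries of Fut7 and Chst4 overlapped too. In LN-LEC the order by RPKM was Glycam1, Enpp2 (118), Gcnt1 (77.5), St3gal6 (62.3), Chst2 (22.1), Cd34 (11.6), B3gnt3 (4.499), Fut4 (3.93), Fut7 (0.981) and Chst4 (0.612). There the libraries of Gcnt1 overlapped those of St3gal6, B3gnt3 those of Fut4, and Fut7 those of Chst4. Fut7 and Chst4 thus stood 6th and 7th in LN-BEC and last in LN-LEC. In D-LEC, St3gal6 (45.8 RPKM) was first, followed by Cd34 (29.9), Gcnt1 (28.8) and Glycam1 (18.2), whose libraries overlapped each other, and by Enpp2 (4.43), Fut4 (1.52), Chst4 (1.39), B3gnt3 (1.36) and Chst2 (1.06), and Fut7 (0.0873) was last.

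The levels in lymphatic cells were also set beside those of the blood endothelial markers Nrp1, Flt1, Vwf and Notch4, each gene relative to its own LN-BEC mean, in percent. In the 4 LN-LEC libraries the markers ranged from 1.03% to 3.22%. Chst4 (0.888 ± 0.336%, SD, n = 4), Fut7 (1.13 ± 0.249%), Cd34 (1.62 ± 0.574%) and Glycam1 (3.00 ± 0.513%) overlapped that range. The other 6 genes were above it in every LN-LEC library: Enpp2 at 15.5 ± 0.379%, B3gnt3 at 18.2 ± 2.43%, Gcnt1 at 29.9 ± 3.85%, Fut4 at 36.4 ± 3.99%, Chst2 at 54.0 ± 10.9% and St3gal6 at 56.6 ± 6.45%.

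In the 3 D-LEC libraries the same markers ranged from 0.123% to 5.51%. Gcnt1 (11.2 ± 2.11%, SD, n = 3), Fut4 (14.2 ± 1.99%) and St3gal6 (42.2 ± 6.98%) were above that range in every library, Glycam1 (0.0141 ± 0.0109%) was below it, and the other 6 overlapped it. For comparison, 5 genes of high endothelium outside the 10 gave wider ranges. Madcam1, an addressin that binds the integrin alpha4beta7, was at 42.3 ± 5.12% of its LN-BEC mean in LN-LEC and 0.0371 ± 0.0377% in D-LEC. Sele (E-selectin) was at 27.1 ± 11.02% and 15.8 ± 2.88%, Selp (P-selectin) at 13.8 ± 2.47% and 3.88 ± 1.49%, and Darc, an atypical chemokine receptor, at 5.21 ± 0.461% and 0.0663 ± 0.0490%. Ch25h, which makes 25-hydroxycholesterol, went the other way, with 4.59 ± 1.84% in LN-LEC and 59.4 ± 12.6% in D-LEC. Against the library range of these 5 genes in LN-LEC (3.26% to 47.9%), 1 of the 10 (St3gal6) was above, 3 (Cd34, Chst4 and Fut7) were below and 6 overlapped it. In D-LEC the range ran from 0% (Madcam1) to 73.9% (Ch25h), so that no gene could lie below it, and all 10 overlapped it. The part of blood endothelial RNA in the LN-LEC and D-LEC values was not tested.

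**Figure D4:**
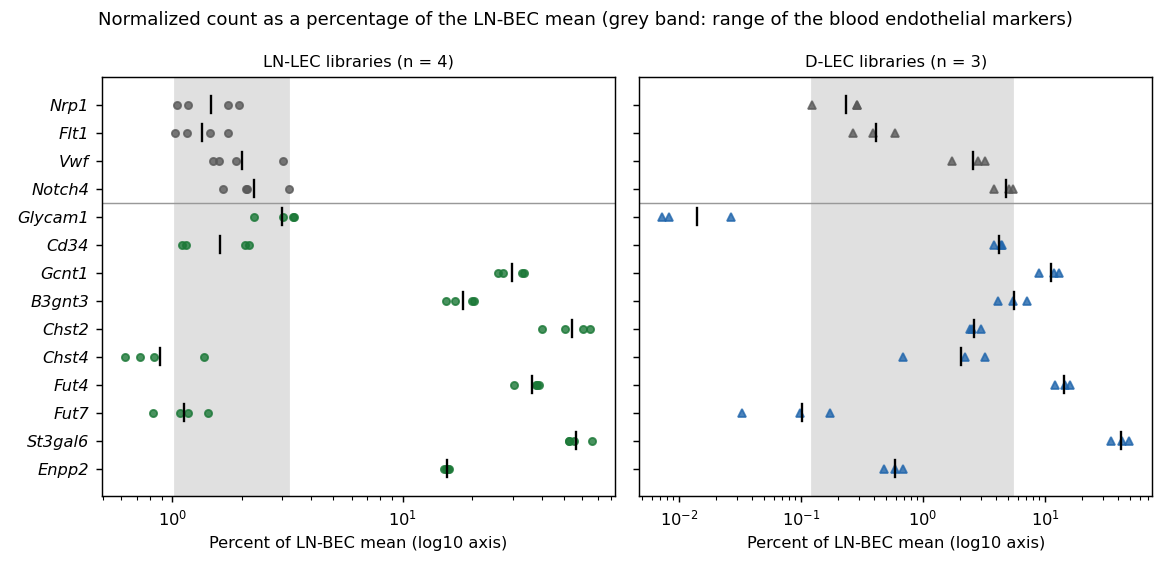
Normalized counts of the 4 blood endothelial markers (grey, above the line) and the 10 genes in each LN-LEC library (left) and D-LEC library (right), in percent of the same gene's LN-BEC mean, on log10 axes with bars at the means. The grey band is the range of the markers, 1.03% to 3.22% in LN-LEC and 0.123% to 5.51% in D-LEC, and 6 genes lie wholly to its right in LN-LEC.

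Among the LN-BEC libraries, replicate 3 was below both others for 7 of the 10 genes, as it was for 37.6% of the 10062 tested genes with a mean of at least 100 normalized counts. Its level over the mean of replicates 1 and 2 ran from 0.751 (Fut4) to 1.11 (Cd34), with a median of 0.834 for the 10 genes and 1.01 for all. Cd34, B3gnt3 and St3gal6 were the exceptions. Without that library all 10 genes were still called against both lymphatic populations, and no log2 fold change moved by more than 0.135. With LN-LEC replicate 4 left out as well, the largest move was 0.463, and the same counts of 10, 10 and 9 genes were called.

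Transcripts of CD45-bearing cells were found in the same libraries. Ptprc, the gene of CD45, had 208.0 to 324.3 normalized counts in LN-BEC, 33.7 to 50.8 in LN-LEC and 9.09 to 21.4 in D-LEC. The 5 T cell markers summed to 187.0 to 347.7 in LN-BEC, 31.7 to 49.03 in LN-LEC and 8.02 to 32.8 in D-LEC, and the 4 B cell markers to 568.2 to 849.2, 337.0 to 484.9 and 13.2 to 40.4. Leukocytes can express Fut7, Fut4, Gcnt1 and St3gal6, and the part of leukocyte RNA in these genes was not tested. The 4 myeloid markers were distributed differently, with sums of 254.3 to 448.5 in LN-BEC, 156.1 to 220.7 in LN-LEC and 386.0 to 718.4 in D-LEC. LN-BEC replicate 3 had the lowest T cell and B cell sums and the highest myeloid sum of its population. The 4 platelet markers summed to 1796 to 1993, 8558 to 11925 and 147.9 to 311.6 in LN-BEC, LN-LEC and D-LEC, with Gp9 at 0 in LN-LEC. Itga2b made up most of the LN-LEC sum, at 7749 to 11140, against 209.3 to 568.2 in LN-BEC. Pf4 and Ppbp were lower in LN-LEC (779.1 to 969.9 and 0 to 5.65) than in LN-BEC (1209 to 1756 and 18.4 to 25.1).

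Other genes listed for the same kinds of step were less one-sided than the 10 genes. Because the 10 and the lists were chosen with earlier results of these data known, this contrast is descriptive and tests nothing. The lists hold core proteins, enzymes, donor and transporter genes and genes that handle lysophosphatidic acid. Some of the listed enzymes, such as B3gnt8, act on other glycans. Of the 82 further genes tested from these lists, 28 were higher in LN-BEC than LN-LEC, 18 were higher in LN-LEC and 36 did not pass, beside 18.4% and 19.8% of all genes. Against D-LEC, 33 were higher in LN-BEC and 14 in D-LEC, beside 25.6% and 22.5% of all genes. Between the lymphatic populations 26 were higher in LN-LEC and 24 in D-LEC, beside 24.1% and 21.7%. Their median log2 fold changes were -0.14 for LN-LEC over LN-BEC, -0.43 for D-LEC over LN-BEC and 0.19 for LN-LEC over D-LEC. The counts given below for single lists stand beside the same shares of all genes, 18.4% higher in LN-BEC than LN-LEC and 19.8% higher in LN-LEC.

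Of the 6 other core proteins, 4 were higher in LN-BEC than LN-LEC and 1 was higher in LN-LEC. In D-LEC against LN-BEC, 4 of them were higher in LN-BEC, 0 in D-LEC, and 2 did not pass, beside 25.6% and 22.5% of all genes. Cd300lg (nepmucin, a mucin-like protein of high endothelial and other vessels) had 815 ± 130 RPKM in LN-BEC (SD, n = 3), 192 ± 15.6 in LN-LEC (n = 4) and 139 ± 14.4 in D-LEC (n = 3). Emcn, a sialomucin of veins and capillaries, followed the order of Cd34, with 394 ± 14.4, 15.03 ± 4.06 and 145 ± 27.1 RPKM in LN-BEC, LN-LEC and D-LEC. Madcam1 had 198 ± 52.1 RPKM in LN-BEC and 84.6 ± 10.1 in LN-LEC, and was counted 0 to 5 times in D-LEC libraries. Parm1, a mucin-like membrane protein, was the one higher in LN-LEC, 7.64-fold over LN-BEC (edgeR adjusted p = 2.50e-06).

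The sulfate donor gene Papss2, whose product makes the activated sulfate PAPS, had 61.5 ± 5.61 RPKM in LN-BEC, 16.8 ± 0.695 in LN-LEC and 0.443 ± 0.273 in D-LEC. It was 3.66-fold higher in LN-BEC than LN-LEC (edgeR adjusted p = 9.42e-05) and 36.9-fold higher in LN-LEC than D-LEC (adjusted p = 3.93e-07), so that its populations had the order of Chst2. The sulfate transporter gene Slc26a2 had the same order at lower levels, from 1.81 ± 0.346 RPKM in LN-BEC to 0.252 ± 0.0433 in D-LEC. Chst7, a further N-acetylglucosamine sulfotransferase, was instead highest in LN-LEC (12.2 ± 1.73 RPKM, 1.46-fold over LN-BEC, adjusted p = 0.00669). Of the 7 further sulfation genes tested, 3 were higher in LN-BEC than LN-LEC and 2 in LN-LEC.

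B4galt4, whose product adds galactose to sulfated N-acetylglucosamine, was 5.62-fold higher in LN-BEC (49.3 ± 3.17 RPKM) than in LN-LEC (8.76 ± 0.618 RPKM; edgeR adjusted p = 1.40e-10), with 11.98 ± 0.682 RPKM in D-LEC. Among the 17 further branching and extension genes, 4 were higher in LN-BEC than LN-LEC and 8 in LN-LEC. B3gnt8, which extends other glycan chains, had its highest level in D-LEC, at 10.5 ± 0.451 RPKM beside 1.196 ± 0.110 in LN-LEC and 0.281 ± 0.0673 in LN-BEC. B3gnt5 was 11.6-fold higher in LN-BEC than LN-LEC (edgeR adjusted p = 2.49e-07) and B3gnt7 8.15-fold higher in LN-LEC than LN-BEC (adjusted p = 3.84e-04), both at no more than 1.49 RPKM in any population.

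Of the 11 further fucosylation genes, 3 were higher in LN-BEC than LN-LEC, 0 in LN-LEC, and 8 did not pass. Fut2, an alpha-1,2-fucosyltransferase, was the only one of them with a fold of at least 5 on more than 3 fragments in each library (5.47-fold higher in LN-BEC than D-LEC, edgeR adjusted p = 3.60e-07), and Fut1, also past 5-fold, was counted 0 to 4 times a library. Of 17 further sialylation genes, 4 were higher in LN-BEC than LN-LEC, 2 in LN-LEC, and 11 did not pass. St6galnac2, which sialylates the base of O-glycans, had 52.3 ± 1.72 RPKM in LN-BEC, 3.72 ± 0.802 in LN-LEC and 0.292 ± 0.112 in D-LEC, and was 14.1-fold higher in LN-BEC than LN-LEC (adjusted p = 1.01e-09). St3gal4, an alpha-2,3-sialyltransferase, was the most abundant other sialyltransferase of the list per length, with 134 ± 8.24 RPKM in LN-BEC, above the 109 ± 3.44 of St3gal6 in the same libraries. St6gal1, an alpha-2,6-sialyltransferase, was 22.8-fold higher in LN-BEC (2.45 ± 0.394 RPKM) than in LN-LEC (0.108 ± 0.0187 RPKM, adjusted p = 2.10e-09). Among the 14 tested genes that start O-glycans, 5 were higher in LN-BEC than LN-LEC and 4 in LN-LEC. Galntl4 was highest in D-LEC (49.2 ± 5.67 RPKM, 5.64-fold over LN-BEC, adjusted p = 5.04e-09). Galnt12 was 60.3-fold higher in LN-LEC (4.67 ± 0.597 RPKM) than in D-LEC (adjusted p = 1.31e-10), with 4.61 ± 0.445 RPKM in LN-BEC. Galnt3 was counted 16 to 209 times in LN-LEC, 37 to 231 times in LN-BEC and 0 to 2 times in D-LEC, and Galnt14 was counted 13 to 52 times in LN-LEC libraries and 0 times in the others.

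Genes that receive or break down lysophosphatidic acid differed in direction. The receptor genes Lpar4 and Lpar6 were 17.9-fold and 8.13-fold higher in LN-BEC than LN-LEC (edgeR adjusted p = 2.17e-11 and 2.02e-10), with 11.9 ± 1.51 and 98.5 ± 10.6 RPKM in LN-BEC. Lpar1 was 4.06-fold higher in LN-LEC (25.3 ± 7.37 RPKM) than in LN-BEC (6.25 ± 3.45 RPKM, adjusted p = 0.00978). Ppap2b, a lipid phosphatase that degrades lysophosphatidic acid, was 19.3-fold higher in LN-BEC (201 ± 5.50 RPKM) than in LN-LEC (10.4 ± 1.64 RPKM, adjusted p = 1.36e-11). Whereas Enpp2 was lowest in D-LEC, Ppap2b was lowest in LN-LEC.

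**Figure D5:**
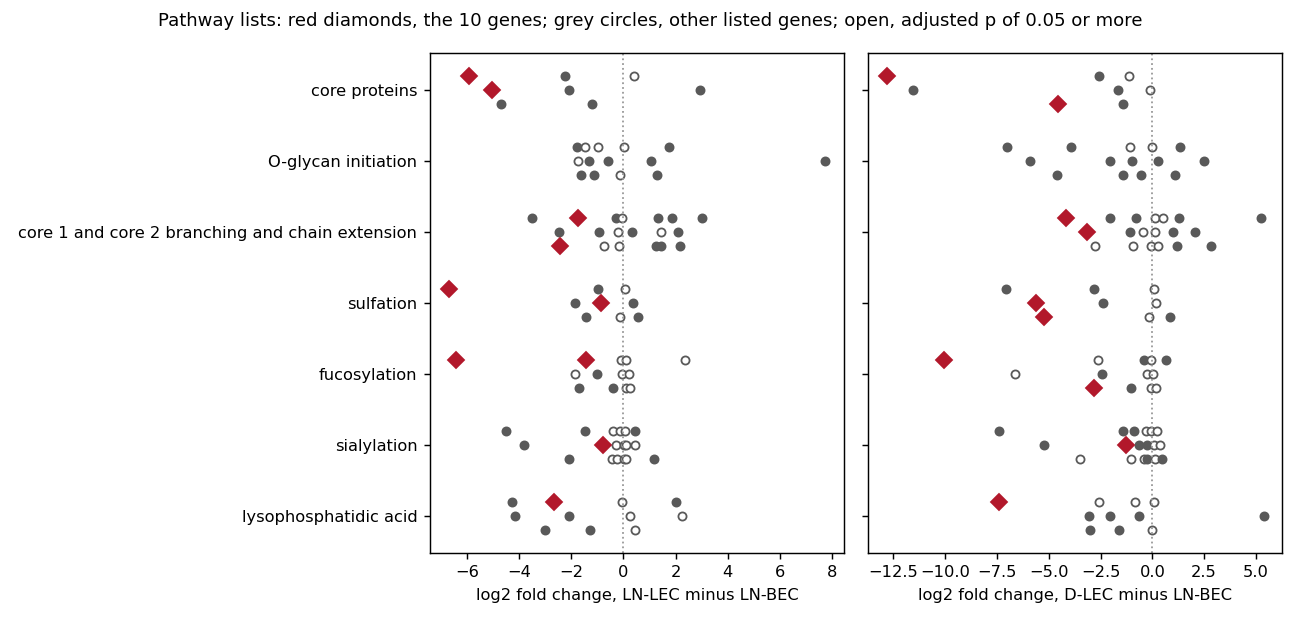
Log2 fold changes of LN-LEC (left) and D-LEC (right) over LN-BEC for the 92 tested genes of the pathway lists, by step, with the 10 genes as red diamonds and the others as grey circles, open where the adjusted p was 0.05 or more. All 10 diamonds lie left of 0 in both panels, while the circles lie on both sides. Fitted values of genes with few counts, such as the point farthest right at O-glycan initiation, depend on the prior count.

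The genes whose profile over the 10 libraries lay nearest to each of the 10 were found by the root mean square distance of centred log2 CPM. Ubd, a ubiquitin-like modifier, was nearest to Glycam1 (distance 0.228, Pearson r 0.999 over 10 libraries of 3 populations), with 46366 ± 6729 normalized counts in LN-BEC, 1640 ± 94.9 in LN-LEC and 5.42 ± 6.23 in D-LEC. Darc and Mecom followed at distances of 1.18 and 1.45. For Cd34 the nearest was the blood endothelial marker Notch4 (0.325), then Pcdh1 and Col13a1.

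Slc14a1, a urea transporter, was nearest to Fut7 (0.453), with 4469 ± 362 normalized counts in LN-BEC and 41.2 ± 14.8 in LN-LEC, followed by Pydc4 and Ndst3. For Chst4 the nearest were Lypd2 (0.464), Fam70b and Ptgds, and for Chst2 they were Lrrc33 (0.228), Dennd2d and Plscr1. Kcnh1 (0.318), Ttll7 and Ifi203 were nearest to Enpp2. The nearest to Gcnt1 were Apbb2 (0.201), Serpinb9 and Fam69a, those to B3gnt3 were Uchl1 (0.275), Dusp23 and Upp1, those to Fut4 were Grrp1 (0.118), Kazn and Mycn, and those to St3gal6 were Hfe (0.126), Rgp1 and Parp9. Distances are smaller for genes that vary less between populations, such as St3gal6. No gene was listed for 2 of the 10.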

How the data were processed

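Per the methods of the study, reads were trimmed, aligned to mm9 with STAR and counted on genes with featureCounts. The deposited counts carry its version, 1.4.4, in their header. Counting was on exons by gene symbol from paired fragments, without regard to strand and without fragments that mapped to several places. The authors deposited these raw counts, whole numbers for 23284 symbols, and a column of exon lengths. Amplified RNA without molecular identifiers was counted, so that a fragment is not a molecule.

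The members and the gene lists were chosen with earlier results of these data known. Normalized counts were scaled by DESeq2 size factors, and RPKM uses TMM-scaled totals and the deposited lengths. Of the symbols, 3802 of predicted or clone names were left out, and 15330 with a mean of at least 1 normalized count in a population were tested, all 10 members among them. The test was the quasi-likelihood F test of edgeR 4.0.16 (R 4.3.3; TMM, robust fit, 10 libraries, 1 mean per population), checked on simulated counts. P-values were adjusted over all tested genes within a comparison (Benjamini-Hochberg) and called under 0.05. SE is the absolute log2 fold change over the square root of F. Genes outside the 10 were named from the lists when they passed the test with a fold of at least 5 in some comparison, by RPKM, up to 4 a list, or as the most abundant of their list, as cell markers or as nearest in profile. Alternatives were DESeq2 1.42.0, other scalings, filters and fits, and each library left out. The p-values set each difference between populations against the spread between libraries, each a pool of mice. That spread was estimated over all populations together and moderated across genes. All 10 members lacked a second copy of any 100-base stretch of their exons in the genome. The sum of 1 marker list is not reported here.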

Additional observations from a re-analysis of the deposited data

Results flagged for a closer look

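Fut4 in LN-LEC replicate 4, at 355.8 normalized counts, lay far below the other 3 LN-LEC libraries, which had 441.8 to 456.3, and its gap to the nearest of them was 0.856 of the whole range of the population. So large a gap (the 95% limit of Dixon's test) is met by chance in about 1 of 20 groups of 4, and 10 genes and 4 ratios were looked at. Without that library Fut4 was still called in each comparison.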

How the results depend on the processing

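Under the 20 alternatives to each comparison, all 10 genes were called in LN-LEC against LN-BEC and in D-LEC against LN-BEC, and 9 or 10 in LN-LEC against D-LEC, where the tenth was Chst4. None of 600 fold changes of the 10 genes turned its direction and none lost its call, and 3 gained one, all of Chst4 in LN-LEC against D-LEC: -1.18 on the log2 scale with DESeq2, -1.11 with the non-robust fit, and -1.53 without D-LEC replicate 2, its lowest value over the libraries left out 1 at a time (the highest was -0.56). Counts of all called genes stayed within 1.5 times (5064 to 6613, 6125 to 7790 and 6232 to 8183 in LN-LEC against LN-BEC, LN-LEC against D-LEC and D-LEC against LN-BEC).

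Glycam1 takes a large share of LN-BEC fragments. With library totals in place of TMM factors the median of all genes moved by 0.20 (log2) in LN-LEC over LN-BEC and by 0.18 in D-LEC over LN-BEC, the 10 genes moved with it (0.17 to 0.20), and the share of calls higher in the lymphatic cells rose from 51.8% to 69.0% and from 46.7% to 60.5%. The percentages of the LN-BEC mean moved by more than 1 SD in 9 of 100 cases, 7 of them with library totals (St3gal6 in LN-LEC from 56.6% to 65.7%). No paired analysis was possible because the labels give no pairing and no replicate numbers. The replicate numbers used here follow the order of the samples in the series. Depth limits Fut7 in D-LEC (2 to 7 fragments) and Chst4 in both lymphatic populations, and intervals over libraries do not cover amplification.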
